A study of Mus musculus with 10 samples.

Results

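Uterine RNA was followed here through 10 genes that mark macrophages or carry their growth signal, chosen by symbol from the 29268 genes of the deposited table. They are the ligand *Csf1* and its receptor *Csf1r*, the markers *Adgre1* (F4/80) and *Cd68*, the scavenger receptors *Mrc1* (CD206) and *Cd163*, the uptake receptor *Mertk*, and the complement genes *C1qa*, *C1qb* and *C1qc*. The samples were uterine tissue of 5 HSD17B1TG and 5 WT females of the FVB/N background, all 4 months old, and each mouse gave 1 library. HSD17B1TG mice carry a human *HSD17B1* cDNA, which encodes the enzyme that turns estrone into estradiol, under a chicken beta actin promoter with a CMV enhancer, so the transgene is not limited to 1 cell type. They come from a heterozygous line and do not cycle, whereas the WT uteri were taken at random phases of the cycle. Neither group received a treatment. Mice are called TG1–TG5 and WT1–WT5 here, and the numbers pair no mice.

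Macrophages depend on CSF1, which binds the receptor tyrosine kinase CSF1R on their surface and keeps them alive and dividing. In the uterus CSF1 is also made by epithelial cells under steroid control, and macrophages of the uterine wall clear dying cells and remodel tissue as the cycle proceeds. F4/80 and CSF1R sit on the surface of most mouse tissue macrophages, CD68 lies in the lysosome membrane, CD206 and CD163 take up glycoproteins and hemoglobin, and MERTK binds dying cells through bridging proteins. C1q, which starts the classical complement pathway, is made in tissue mainly by macrophages.

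Counts on genes totalled between 14817228 and 23271988 per mouse, and the 10 genes passed the filter on low counts with 10 to 2362 counts per mouse. TG1 stood apart from the other HSD17B1TG mice before any test. It had the highest FPKM (fragments scaled by gene length and sequencing depth) of all 10 mice in 7 of the 10 genes. Its summed FPKM of 6 smooth muscle markers was 6880, against 793 to 2816 in TG2 to TG5 and 380 to 5554 in WT. Its summed FPKM of 6 epithelial markers was 606, against 1612 to 2747 in TG2 to TG5 and 373 to 1492 in WT. Mitochondrial genes took 5.74%, 6.87% and 7.57% of the counts in TG1, TG4 and TG5, against 1.94% and 2.49% in TG2 and TG3 and 2.58% to 3.37% in WT, and the part of this difference in the results was not tested. Where TG1 moved a value strongly, the value without it is given beside it.

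Of the 10 genes, 1 rose and 1 fell between the genotypes. *Cd68* was higher in HSD17B1TG and *Mertk* was lower, and the other 8 did not pass the test. A gene was called when edgeR's quasi-likelihood test gave a Benjamini-Hochberg adjusted p below 0.05 over the 16993 genes tested, with a fold change above 2 and a mean FPKM above 1 in either group. By the same rule 2.16% of all tested genes were called up and 2.08% were called down, with 1 of the 10 genes in each direction. These shares moved widely with single mice: with 1 mouse left out, 38 to 888 genes were called up and 27 to 666 down, in place of 367 and 354. Every HSD17B1TG mouse lay below every WT mouse in 1 of the 10 genes, *Mertk*, against 2.65% of all tested genes. In the opposite direction none of the 10 was free of overlap, against 4.04% of all tested genes. The median log2 fold change of the 10 genes was 0.10, beside 0.0021 over all tested genes, and it turned to -0.17 without TG1. In bulk RNA a change in the number of macrophages and a change in RNA per macrophage cannot be told apart.

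**Figure D1:**
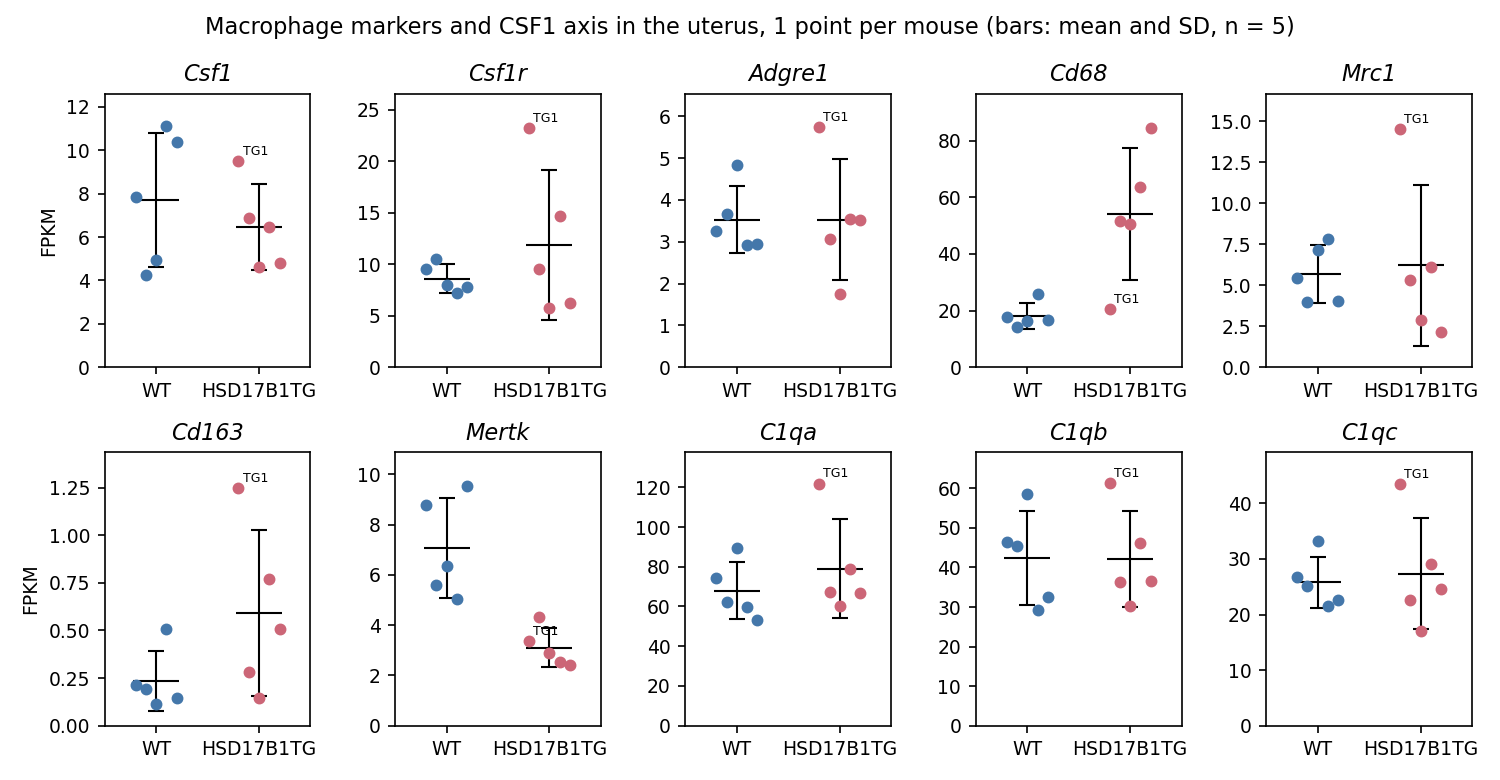
FPKM of each of the 10 genes (vertical axis, from 0) in the 5 WT mice (blue) and the 5 HSD17B1TG mice (red), with bars for the mean and SD and TG1 labelled. The HSD17B1TG mice other than TG1 lie above every WT mouse in *Cd68* (50.7 to 84.3 against at most 25.8), all 5 lie below every WT mouse in *Mertk*, and TG1 is the highest point in *Csf1r*, *Adgre1*, *Mrc1*, *Cd163* and the C1q genes.

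*Csf1* (ENSMUSG00000014599, chr3:107741048-107760469, minus strand, GRCm38) encodes the ligand. Its FPKM was 9.50, 6.89, 4.64, 6.48 and 4.78 in TG1 to TG5, and 7.87, 4.26, 4.96, 11.1 and 10.4 in WT1 to WT5. WT4 and WT5 were the highest mice and WT2 the lowest, and the WT range held the whole HSD17B1TG range. Mean FPKM was 6.46 ± 1.97 (SD, n = 5) against 7.72 ± 3.09 in WT, and the log2 fold change was -0.26 (SE 0.30, 95% interval -0.92 to 0.40, edgeR adjusted p = 0.626). Without TG1 it was -0.44.

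*Csf1r* (ENSMUSG00000024621, chr18:61105572-61132149, plus strand) encodes the receptor for CSF1 and for IL-34. Its FPKM was 23.2, 9.50, 5.79, 14.7 and 6.20 in TG1 to TG5, and 9.55, 10.5, 7.96, 7.16 and 7.78 in WT1 to WT5. The HSD17B1TG mice spread to both sides of WT, with TG1 and TG4 above every WT mouse and TG3 and TG5 below every WT mouse. The coefficient of variation between mice was 61.2% in HSD17B1TG and 16.1% in WT. Mean FPKM was 11.9 ± 7.27 (SD, n = 5) against 8.59 ± 1.38, with a log2 fold change of 0.46 (SE 0.35, 95% interval -0.32 to 1.24, edgeR adjusted p = 0.443). Without TG1 the log2 fold change of *Csf1r* was 0.072. The gene overlaps *Hmgxb3* on the other strand and *Mir6983*, and the strand setting of the counting is not given in the sources used here.

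*Adgre1* (ENSMUSG00000004730, chr17:57358691-57483527, plus strand) encodes F4/80, the adhesion receptor by which mouse macrophages are most often stained. Its FPKM was 5.75, 3.07, 1.74, 3.54 and 3.51 in TG1 to TG5, and 3.27, 3.67, 4.84, 2.93 and 2.94 in WT1 to WT5. TG1 was above and TG3 below every WT mouse, and the other HSD17B1TG mice lay within the WT range. The group means were 3.52 ± 1.44 (SD, n = 5) and 3.53 ± 0.795, and the log2 fold change was -0.0082 (SE 0.30, 95% interval -0.67 to 0.65, edgeR adjusted p = 0.990). Without TG1 it was -0.25.

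*Cd68* (ENSMUSG00000018774, chr11:69664213-69666153, minus strand) encodes a glycoprotein of late endosomes and lysosomes that is abundant in macrophages and also found in other cells. Its FPKM was 20.4, 51.5, 50.7, 63.7 and 84.3 in TG1 to TG5, and 17.6, 14.2, 16.2, 25.8 and 16.7 in WT1 to WT5. TG2 to TG5 were above every WT mouse, and TG1 lay within the WT range, below WT4. Mean FPKM was 54.1 ± 23.2 (SD, n = 5) against 18.1 ± 4.49, and *Cd68* rose 2.98-fold (95% interval 1.82 to 4.87, log2 fold change 1.58, SE 0.32, edgeR adjusted p = 0.0269). When each mouse was left out in turn, the log2 fold change stayed between 1.36 and 1.79 and the adjusted p lay between 0.0089 and 0.0747, below 0.05 without TG1, TG3 or WT4 and above it without any 1 of the other 7 mice.

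The 250 bases before the start of *Cd68* are shown because it is the gene that rose. RefSeq promoters were matched for 7 of the 10 genes by symbol, and 5 short motifs were searched on both strands: the AP-1 site TGANTCA, the PU.1 box core GAGGAA, the ETS core GGAAGT, which can share bases with the former, the estrogen receptor half-site AGGTCA, and TATAAA. The *Cd68* stretch (GRCm38.p6, chr11:69666171-69666420, minus strand) is printed 5′ to 3′ with matches in capitals.
Cd68: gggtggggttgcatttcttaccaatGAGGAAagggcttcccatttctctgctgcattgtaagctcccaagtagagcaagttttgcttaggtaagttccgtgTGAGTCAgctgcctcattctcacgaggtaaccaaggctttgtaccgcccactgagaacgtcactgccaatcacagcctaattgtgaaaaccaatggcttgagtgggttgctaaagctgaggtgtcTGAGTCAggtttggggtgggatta
It held 2 AP-1 letter matches and 1 match to the PU.1 box core. Among 32851 promoter stretches of the same length, 6.75% held an AP-1 match and 0.338% held 2 or more, while 23.3% held the PU.1 box core. A letter match describes the sequence and is not a measured binding site.

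*Mrc1* (ENSMUSG00000026712, chr2:14229392-14332057, plus strand), which holds *Mir511* on the same strand, encodes the mannose receptor CD206. Its FPKM was 14.5, 5.34, 2.88, 6.12 and 2.16 in TG1 to TG5, and 5.42, 3.95, 7.13, 7.84 and 4.02 in WT1 to WT5. TG1 exceeded every WT mouse, TG3 and TG5 were below every WT mouse, and the largest HSD17B1TG value was 6.72 times the smallest. The log2 fold change was 0.13 (SE 0.46, 95% interval -0.89 to 1.14, edgeR adjusted p = 0.891) and was -0.46 without TG1.

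*Cd163* (ENSMUSG00000008845, chr6:124304656-124330527, plus strand) encodes the hemoglobin scavenger receptor. Its FPKM was 1.25, 0.284, 0.146, 0.772 and 0.506 in TG1 to TG5, and 0.216, 0.193, 0.114, 0.505 and 0.143 in WT1 to WT5. TG1 and TG4 were above every WT mouse, TG5 was level with WT4, the highest WT mouse, and the counts behind them were 10 to 127 per mouse. Mean FPKM was 0.591 ± 0.437 (SD, n = 5) against 0.234 ± 0.157, with a log2 fold change of 1.33 (SE 0.60, 95% interval 0.014 to 2.64) and an unadjusted p of 0.0480. The edgeR adjusted p was 0.188, both means were under 1 FPKM, and the log2 fold change was 0.86 without TG1.

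*Mertk* (ENSMUSG00000014361, chr2:128698956-128802894, plus strand) encodes a receptor of the TAM family (TYRO3, AXL, MERTK) that binds dying cells through GAS6 and protein S. Its FPKM was 3.38, 4.31, 2.88, 2.52 and 2.43 in TG1 to TG5, and 8.79, 5.61, 6.36, 5.05 and 9.54 in WT1 to WT5. Every HSD17B1TG mouse was below every WT mouse, and TG1 lay among the other HSD17B1TG mice. Mean FPKM was 3.10 ± 0.770 (SD, n = 5) against 7.07 ± 1.99, which is 2.28-fold lower in HSD17B1TG (log2 fold change -1.19, SE 0.23, 95% interval -1.71 to -0.67, edgeR adjusted p = 0.0255). With each mouse left out the log2 fold change stayed between -1.34 and -1.08 and the adjusted p lay between 0.0093 and 0.0654, below 0.05 without TG1, TG2, TG3 or WT4 and above it without any 1 of the other 6 mice. *Mertk* overlaps *Gm14011* on the other strand and *Gm23172* on the same strand.

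The *Mertk* stretch before its start (GRCm38.p6, chr2:128698665-128698914, plus strand), shown beside that of *Cd68* as the gene that fell, has no capitals because it held none of the 5 motifs.
Mertk: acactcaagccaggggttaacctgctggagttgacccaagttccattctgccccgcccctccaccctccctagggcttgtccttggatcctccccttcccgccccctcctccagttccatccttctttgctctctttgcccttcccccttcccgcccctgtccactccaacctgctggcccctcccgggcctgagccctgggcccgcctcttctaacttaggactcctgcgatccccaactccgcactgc
*Csf1* and *Cd163* held none of them either.

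*C1qa* (ENSMUSG00000036887, chr4:136895917-136898803), *C1qc* (ENSMUSG00000036896, chr4:136889804-136893065) and *C1qb* (ENSMUSG00000036905, chr4:136880129-136886187) lie side by side on the minus strand and encode the 3 chains of C1q. The FPKM of *C1qa* was 122, 67.4, 60.4, 78.8 and 67.0 in TG1 to TG5, and 74.6, 62.3, 89.6, 59.7 and 53.4 in WT1 to WT5. The FPKM of *C1qb* was 61.3, 36.2, 30.3, 46.1 and 36.6 in TG1 to TG5, and 46.4, 45.5, 58.6, 29.2 and 32.5 in WT1 to WT5. The FPKM of *C1qc* was 43.5, 22.6, 17.1, 29.1 and 24.6 in TG1 to TG5, and 26.7, 25.1, 33.2, 21.5 and 22.7 in WT1 to WT5. In each of the 3 genes TG1 was the highest HSD17B1TG mouse, WT3 was the highest WT mouse, and the other HSD17B1TG mice lay near or within the WT range.

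None of the C1q genes passed the test. The log2 fold change was 0.21 (SE 0.21, 95% interval -0.26 to 0.69, edgeR adjusted p = 0.568) for *C1qa*, and 0.0081 without TG1. It was -0.018 (SE 0.24, 95% interval -0.54 to 0.51, adjusted p = 0.972) for *C1qb* and 0.078 (SE 0.23, 95% interval -0.44 to 0.59, adjusted p = 0.864) for *C1qc*, and without TG1 they were -0.19 and -0.15. These intervals do not reach a fold change of 2 in either direction. The log2 ratio of *C1qa* to *C1qb* FPKM was 0.91 ± 0.092 (SD, n = 5) in HSD17B1TG and 0.70 ± 0.21 in WT, with overlapping groups, and that of *C1qb* to *C1qc* was 0.65 ± 0.12 and 0.69 ± 0.19. That of *C1qa* to *C1qc* was 1.55 ± 0.16 and 1.39 ± 0.11, with 3 of the 5 HSD17B1TG mice above every WT mouse, and none of these ratios was tested.

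The *C1qb* stretch (GRCm38.p6, chr4:136886201-136886450, minus strand) is shown because the C1q genes varied together from mouse to mouse, as described further on.
C1qb: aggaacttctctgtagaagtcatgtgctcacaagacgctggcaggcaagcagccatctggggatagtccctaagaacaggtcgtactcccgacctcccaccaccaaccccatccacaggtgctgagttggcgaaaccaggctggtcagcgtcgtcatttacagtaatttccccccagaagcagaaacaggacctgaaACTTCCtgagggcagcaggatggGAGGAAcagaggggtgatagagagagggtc
It held 1 match to the PU.1 box core and 1 to the ETS core, which 19.7% of all promoter stretches held. *C1qc* held 1 match to each of these and 1 to the estrogen receptor half-site, which 14.0% of all stretches held. *Mrc1* held 3 matches to the PU.1 box core, which 3.54% of all stretches held 2 or more times, and 1 to the ETS core. None of the 7 genes held TATAAA, which 12.4% of all stretches held.

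**Figure D2:**
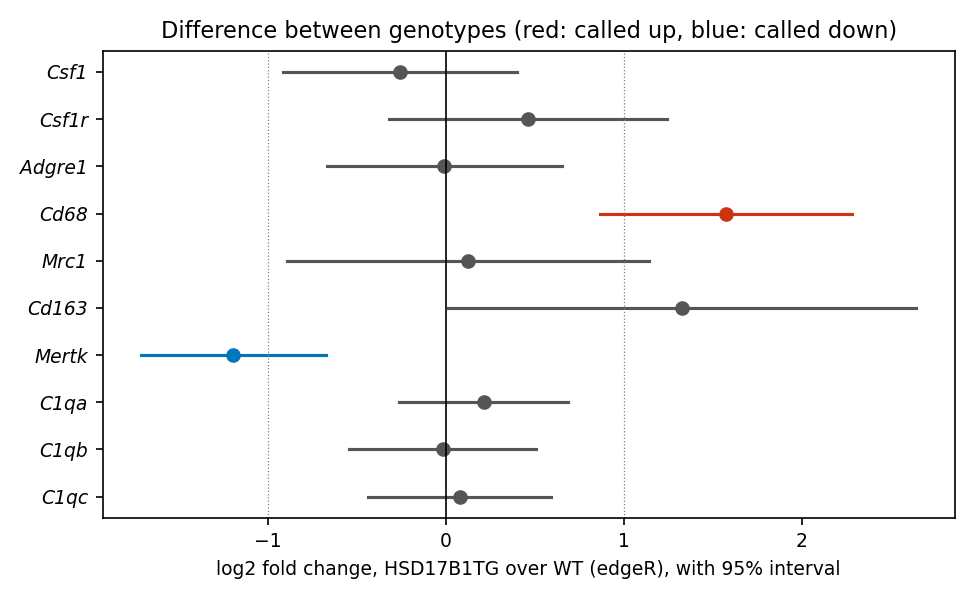
log2 fold change of each gene, HSD17B1TG over WT, from edgeR (points) with its 95% interval (lines); dotted lines mark a fold change of 2. *Cd68* (1.58) lies to the right and *Mertk* (-1.19) to the left of 0 with intervals that exclude it, the lower bound of *Cd163* is 0.014, and the other 7 intervals include 0.

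In WT the order of mean FPKM was *C1qa* (67.9), *C1qb* (42.4), *C1qc* (25.8), *Cd68* (18.1), *Csf1r* (8.59), *Csf1* (7.72), *Mertk* (7.07), *Mrc1* (5.67), *Adgre1* (3.53) and *Cd163* (0.234). The ranges of neighbours were separate only between *Cd68* and *Csf1r* and between *Adgre1* and *Cd163*. *Csf1r*, *Csf1*, *Mertk* and *Mrc1* followed each other in 2 or 3 of the 5 WT mice, so their order was not larger than the spread. In HSD17B1TG *Cd68* (54.1) stood between *C1qa* (79.1) and *C1qb* (42.1), and *Mertk* (3.10) stood below *Adgre1* (3.52), which it exceeded in 2 of the 5 mice. Only *Mertk* and *Cd163* were separate neighbours there. In 8 of the 10 genes the coefficient of variation was larger in HSD17B1TG than in WT. Without TG1 this held for 6 of the 10, *Mertk* among them, which was not among the former 8.

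The levels of *Mertk* and *Cd68* were also set against other genes of the same mouse. The log2 ratio of *Mertk* to *Csf1r* FPKM was -2.78, -1.14, -1.01, -2.54 and -1.35 in TG1 to TG5, and -0.12, -0.90, -0.32, -0.50 and 0.29 in WT1 to WT5. All 5 HSD17B1TG mice were below every WT mouse. They were so too for the log2 ratio of *Mertk* to the summed FPKM of 10 pan-leucocyte genes (-4.69 ± 0.44, SD, n = 5, against -3.49 ± 0.45), but without *Laptm5*, which made up 32.5% to 57.6% of that sum in HSD17B1TG and 11.5% to 38.3% in WT, the groups overlapped (-3.68 ± 0.37 against -3.12 ± 0.52), with 2 of the 5 below every WT mouse. The log2 ratio of *Mertk* to *Adgre1* was below every WT mouse in 3 of the 5, with TG2 and TG3 inside the WT range.

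The log2 ratio of *Cd68* to *Adgre1* FPKM was 1.83, 4.07, 4.86, 4.17 and 4.59 in TG1 to TG5, and 2.43, 1.95, 1.74, 3.14 and 2.51 in WT1 to WT5. TG2 to TG5 were again above every WT mouse and TG1 was not. TG1 was below every WT mouse in the log2 ratio of *Cd68* to *Csf1r* (-0.19, against 0.44 to 1.85 in WT and 2.12 to 3.77 in TG2 to TG5). The log2 ratio of *Csf1* to *Csf1r* overlapped between the groups (-0.72 ± 0.47 in HSD17B1TG, SD, n = 5, against -0.24 ± 0.79). These ratios reuse the values of the called genes and were not tested.

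**Figure D3:**
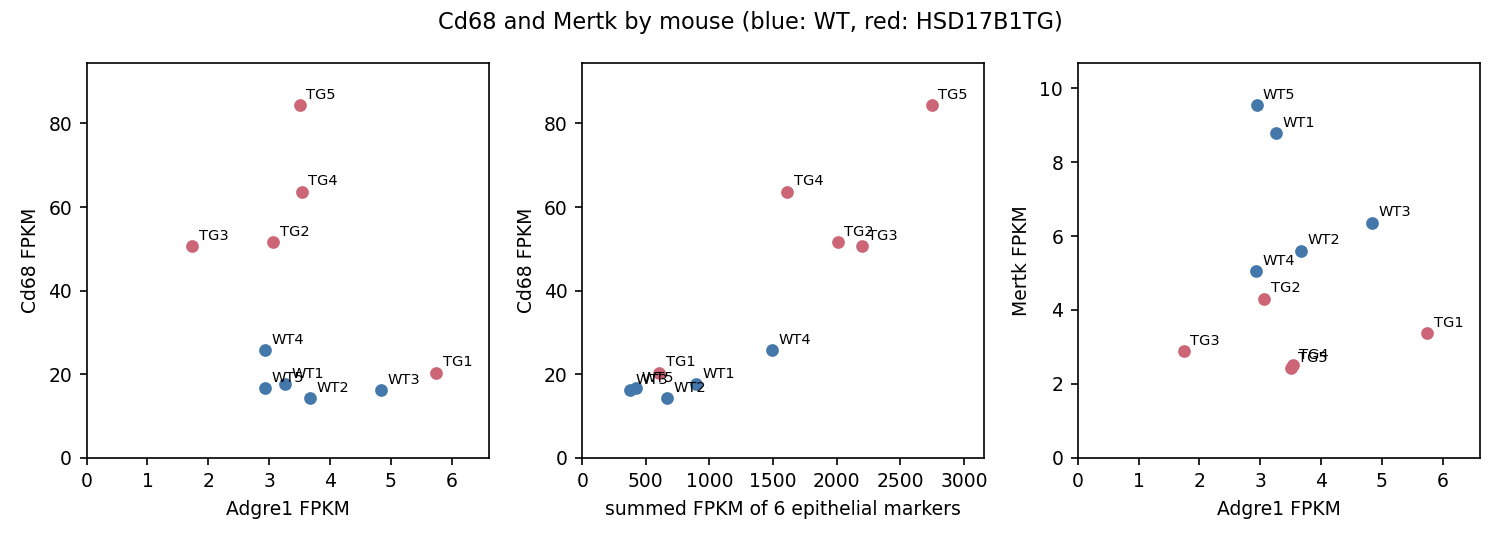
FPKM of *Cd68* against *Adgre1* FPKM (left) and against the summed FPKM of 6 epithelial markers (middle), and FPKM of *Mertk* against *Adgre1* FPKM (right), 1 labelled point per mouse (blue WT, red HSD17B1TG). TG1, with the highest *Adgre1* (5.75), has the *Cd68* level of WT mice, and TG5 is highest in both *Cd68* (84.3) and the epithelial sum (2747).

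Whether the genes varied together from mouse to mouse beyond genotype was asked on log2 CPM (counts scaled by library size, prior count 2) with each group's mean removed, over 10 mice and 45 pairs. The p-values are two-sided and exact over the 14400 pairings within groups, adjusted over the 45 pairs. *C1qa*, *C1qb* and *C1qc* varied together, with Pearson r of 0.92 for *C1qa* and *C1qb* (rho 0.89, permutation p = 0.000417, adjusted p = 0.00469), 0.94 for *C1qa* and *C1qc* (rho 0.89, permutation p = 0.000347, adjusted p = 0.00469) and 0.92 for *C1qb* and *C1qc* (rho 0.98, permutation p = 6.94e-05, the smallest these pairings can give, adjusted p = 0.00312). The adjusted permutation p of rho was 0.0262, 0.0262 and 0.00312. Without the 2 mice farthest from the median of the first gene, TG1 and WT3, these r were 0.83, 0.82 and 0.83.

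*Adgre1* joined the C1q genes. Its r was 0.86 with *C1qa* (rho 0.77, permutation p = 0.00528, adjusted p = 0.0396), 0.86 with *C1qb* (rho 0.90, permutation p = 0.000694, adjusted p = 0.00625) and 0.96 with *C1qc* (rho 0.89, permutation p = 0.000347, adjusted p = 0.00469). The adjusted permutation p of rho for the 3 pairs was 0.0799, 0.0109 and 0.0156. Without TG1 and TG3 the r were 0.78, 0.86 and 0.89. These 6 were the pairs of 45 with an adjusted p of r below 0.05.

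*Csf1r* was positively related to *Adgre1*, *Mrc1* and the C1q genes (r 0.73 to 0.82), with an adjusted permutation p of r above 0.05 in each. By rho the pair of *Csf1r* and *C1qa* passed (rho 0.85, adjusted permutation p = 0.0427) and the other 4 did not. Without TG1 and TG3 the r of *Csf1r* was 0.11 with *Adgre1*, 0.48 with *Mrc1* and between 0.33 and 0.48 with the C1q genes. The ligand and its receptor did not pass the test (*Csf1* and *Csf1r*, r = 0.37, rho = 0.030, permutation p = 0.244 and 0.942, adjusted p = 0.406 and 0.970). Their r was 0.058 without TG1 and 0.63 without WT2 and WT3.

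*Cd68* had a negative r with each of the other 9 genes (-0.72 to -0.15), and none of these passed the test. Without TG1, a choice made after seeing the data, only 4 of the 9 were negative and the r ranged from -0.50 to 0.76. The r of *Mertk* with the other 9 genes lay between -0.39 and 0.37, and none passed the test.

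**Figure D4:**
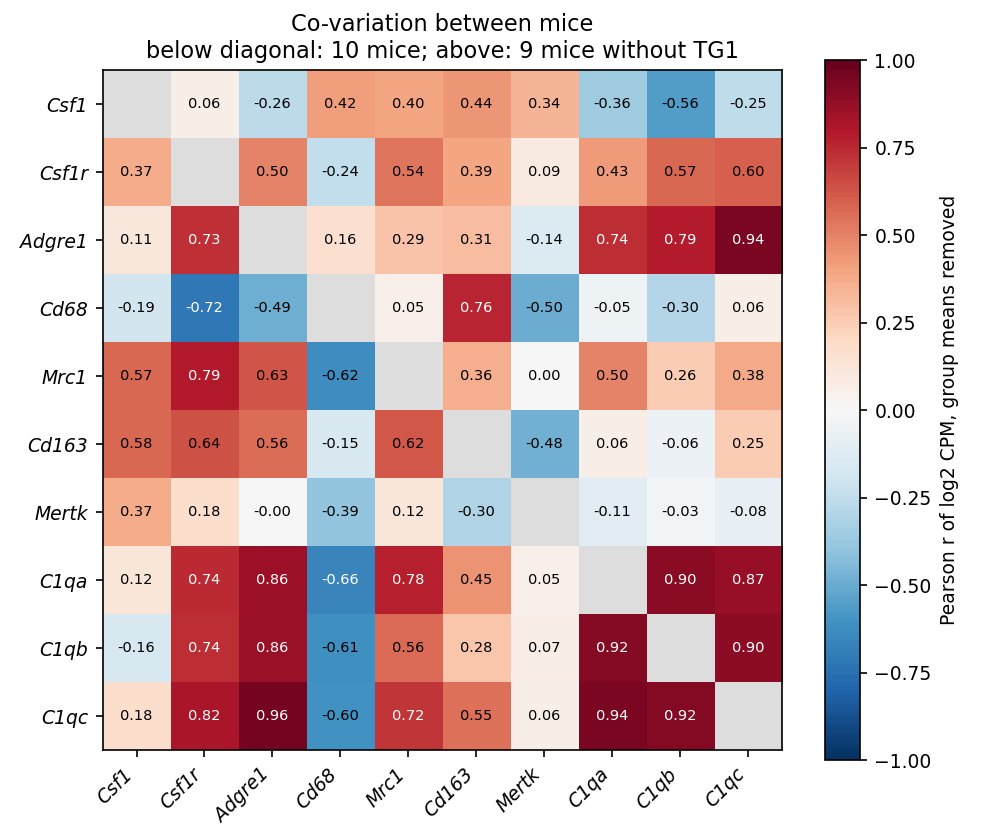
Pearson r between genes over mice, on log2 CPM with group means removed, for 10 mice (below the diagonal) and for the 9 mice without TG1 (above it); red is positive and blue negative. The block of *C1qa*, *C1qb*, *C1qc* and *Adgre1* is between 0.86 and 0.96 below the diagonal and between 0.74 and 0.94 above it, and the *Cd68* pairs are all negative below it and of both signs above it.

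Around these genes, 6 lists of 68 pathway genes were followed, chosen with earlier results of these data known. Of the 62 tested 5 rose and 0 fell, beside 2.16% and 2.08% of all tested genes. Of 13 genes of CSF1 receptor signalling and myeloid transcription factors none was called, 3 had an unadjusted p below 0.05, and their median log2 fold change was 0.0028. Over all 16993 tested genes 4430 had an unadjusted p below 0.05 in the same edgeR test, and such counts here and below stand beside that share. The lipid phosphatase gene *Inpp5d* (SHIP1) was at 8.22 ± 2.20 FPKM (SD, n = 5) against 3.97 ± 1.67 (log2 fold change 1.05, edgeR adjusted p = 0.0584). The phospholipase gene *Plcg2* was at 7.76 ± 3.12 against 3.74 ± 1.02 (log2 fold change 1.05, adjusted p = 0.0664). The adaptor gene *Dok2* (log2 fold change -1.24, adjusted p = 0.132) and the transcription factor gene *Maf* (-0.70, adjusted p = 0.227) leaned the other way. *Il34*, the second ligand of CSF1R, named for its role after its values were seen, was at 1.26 ± 0.490 against 0.807 ± 0.106 FPKM (log2 fold change 0.64, adjusted p = 0.218).

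Of the other colony-stimulating factors and receptors 5 of 6 genes were tested and 1 was called. *Csf3*, which encodes the neutrophil growth factor G-CSF, was at 10.8, 29.5, 18.5, 7.42 and 54.3 FPKM in TG1 to TG5, and 6.22, 1.38, 4.21, 5.11 and 1.69 in WT1 to WT5. Every HSD17B1TG mouse was above every WT mouse, and *Csf3* rose with a log2 fold change of 2.69 (SE 0.61, edgeR adjusted p = 0.0345). *Csf2ra* had a log2 fold change of 0.47 (adjusted p = 0.155). *Csf2rb* (-0.45, adjusted p = 0.496) and its near copy *Csf2rb2* (-0.24, adjusted p = 0.806) can share reads, so the split between them is uncertain.

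Other resident macrophage markers gave no call. Of 19 genes 17 were tested, 13 of the 17 had a positive log2 fold change, and the median was 0.36. Only 1 had an unadjusted edgeR p below 0.05, beside 4430 of all 16993 tested genes. *Lyve1* (log2 fold change 1.27, adjusted p = 0.239) and *Clec10a* (0.97, adjusted p = 0.231) had the smallest p among the positive ones, and *Msr1* (-0.90, adjusted p = 0.151) and *Cx3cr1* (-0.43, adjusted p = 0.508) among the negative ones. The summed FPKM of the list was 327 in TG1, against 90.4 to 193 in TG2 to TG5 and 70.2 to 168 in WT.

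Of 11 macrophage activation genes 8 were tested and 1 was called. Of these 8 genes 6 had a positive log2 fold change, 2 had an unadjusted edgeR p below 0.05, and the median was 1.17. *Gpnmb*, which encodes a transmembrane glycoprotein of lipid-laden macrophages and other cells, was at 4.28, 2.24, 1.14, 11.7 and 3.53 FPKM in TG1 to TG5, and 0.231, 1.02, 0.238, 0.424 and 0.630 in WT1 to WT5. The groups did not overlap, and *Gpnmb* rose with a log2 fold change of 3.16 (SE 0.66, edgeR adjusted p = 0.0290). *Nos2* (log2 fold change -0.98, adjusted p = 0.424) and *Cd80* (-0.59, adjusted p = 0.563) leaned the other way.

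Of 12 genes of apoptotic cell uptake other than *Mertk* none was called and the median log2 fold change was -0.11. An unadjusted edgeR p below 0.05 was found in 4 of them, beside 4430 of all 16993 tested genes. *Axl*, the relative of *Mertk*, was at 30.3 ± 15.1 FPKM (SD, n = 5) against 59.0 ± 12.8 (log2 fold change -0.97, SE 0.32, edgeR adjusted p = 0.0848). *Cd36*, a receptor for oxidised lipids and dying cells, had a log2 fold change of -1.46 (adjusted p = 0.137), while *Itgav* (0.44, adjusted p = 0.140) and *Adgrb1* (1.33, adjusted p = 0.338) were positive. The genes of the bridging ligands, named for their role after their values were seen, were at -0.044 for *Gas6* (adjusted p = 0.961) and -0.31 for *Pros1* (adjusted p = 0.648) on the log2 scale.

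Of 7 further genes of the C1 complex and the classical pathway 3 rose and none fell, with a list median of -0.17. The protease gene *C2* was at 7.15 ± 2.57 FPKM (SD, n = 5) against 1.92 ± 0.302 (log2 fold change 1.89, SE 0.26, edgeR adjusted p = 0.0149). *C4b* was at 33.0 ± 17.7 against 10.1 ± 4.46 (log2 fold change 1.71, SE 0.44, adjusted p = 0.0471), and it has a near-identical neighbour with which it can share reads. *Serping1*, which encodes the C1 inhibitor, was at 458 ± 166 against 166 ± 47.5 (log2 fold change 1.46, SE 0.29, adjusted p = 0.0256). In each of these 3 genes every HSD17B1TG mouse was above every WT mouse, which held for 4.04% of all tested genes. For *C4b* the gap was narrow, with TG3 at 14.5 and WT4 at 14.4 FPKM. The C1 protease genes *C1s1* (-0.42, adjusted p = 0.542) and *C1s2* (-0.37, adjusted p = 0.425), which resemble each other and can share reads, did not pass the test.

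Of the 10 pan-leucocyte genes 1 rose and none was called down. The summed FPKM of the 10 pan-leucocyte genes was 67.5 to 89.6 in HSD17B1TG and 53.5 to 110 in WT, and 9 of the 10 had a negative log2 fold change. Without *Laptm5* the sum was 29.8 to 45.5 against 33.0 to 96.9. The exception was *Laptm5*, a lysosomal gene as *Cd68* is, which rose (39.6 ± 10.7 against 16.2 ± 5.50 FPKM, SD, n = 5, log2 fold change 1.28, edgeR adjusted p = 0.0312). *Cd52*, the next most abundant of them by mean FPKM over all 10 mice, had a log2 fold change of -1.37 (adjusted p = 0.0639).

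Other leucocyte types were followed by 8 lists. The summed FPKM of the neutrophil markers was low and was 6.67 to 12.7 in HSD17B1TG against 0.0181 to 4.76 in WT, with 8 of the 10 markers listed, 3 tested, 0 called and 1 with an unadjusted p below 0.05, and with *Retnlg* and *Camp* at no more than 3 counts in any mouse. Without *Ly6g* the neutrophil sum was 1.97 to 11.4 against 0.0181 to 2.46, and the groups overlapped. The T and NK cell sum was 3.08 to 6.44 in HSD17B1TG and 5.74 to 34.7 in WT, and *Ncr1*, *Nkg7* and *Eomes* fell. *Nkg7* and *Ncr1* had the highest mean FPKM of the list in WT (9.87 and 6.97). None of its tested T cell genes was called, namely *Cd3g* (log2 fold change -1.16, edgeR adjusted p = 0.199), *Cd3d* (-0.21, adjusted p = 0.730) and *Cd4* (1.33, adjusted p = 0.109). The summed FPKM of the monocyte markers was 123 to 268 against 101 to 264, of dendritic cell markers 3.07 to 5.90 against 3.41 to 7.99, and of MHC class II genes 149 to 215 against 80.1 to 285. It was 8.29 to 35.0 against 24.1 to 52.1 for mast cell markers, 44.0 to 180 against 21.04 to 259 for B and plasma cell markers, and 0.367 to 1.36 against 0.121 to 0.955 for eosinophil markers. Single genes carried some of these sums. Among the mast cell markers *Hdc* fell, and without it the sum was 7.03 to 34.4 against 1.52 to 50.7. *Plac8* made up 93.3% to 98.3% of the monocyte sum, which was 5.78 to 11.9 against 2.73 to 7.17 without it. Among the other monocyte markers *Ccr2* had a log2 fold change of -1.03 (adjusted p = 0.0598), while *Ms4a4c* (1.60, adjusted p = 0.0528) and *Ifitm6* (1.69, adjusted p = 0.0739) were higher in every HSD17B1TG mouse than in every WT mouse. Of 6 tested dendritic cell markers 2 had a positive log2 fold change and none was called. *Siglech* was at 1.78 (adjusted p = 0.0322, both means under 1 FPKM) and *Zbtb46* at -1.18 (adjusted p = 0.0528), each without overlap of the groups. The part of these cells in the genotype differences of *Cd68* and *Mertk* was not tested. Relations of both genes with the sums, group means removed, are given further on.

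Of the lists of other tissue cells, the stromal list held called genes. All 6 epithelial markers had a positive log2 fold change (median 1.24) and an unadjusted p below 0.05 but none was called, and the epithelial sum was above every WT mouse in TG2 to TG5, the same 4 mice as in *Cd68*. Of 6 stromal markers 4 fell (*Pdgfra*, *Hand2*, *Hoxa10* and *Hoxa11*), and the stromal sum was 245 to 1066 in HSD17B1TG and 610 to 962 in WT. The other 2, *Lum* (log2 fold change 0.51, edgeR adjusted p = 0.518) and *Dcn* (-0.098, adjusted p = 0.915), were not called. They had the highest mean FPKM of the list in both groups, so the sum says little about the 4 that fell. The endothelial sum was 16.8 to 63.4 against 38.5 to 94.8. Adipocyte markers reached 25.1 in TG4 and at most 6.17 in WT, and oviduct markers stayed at 0.463 to 2.15 against 0.524 to 5.08.

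Relations of *Csf1*, *Csf1r*, *Cd68* and *Mertk* with the 15 summed marker lists were computed after these values were seen, 60 in all, on log2 scales with group means removed. None passed after adjustment over the 60 by r or by rho. The relation with the smallest p was that of *Csf1* with the smooth muscle sum (r = 0.93, rho = 0.89, permutation p = 0.00125 and 0.00465, adjusted p = 0.0750 and 0.279, r = 0.92 without WT3 and WT4). For *Cd68* it was the epithelial sum (r = 0.81, rho = 0.77, permutation p = 0.0114 for both, adjusted p = 0.228 and 0.342), and r was 0.55 without TG1 and WT4. For *Mertk* it was the T and NK cell sum (r = 0.72, rho = 0.68, permutation p = 0.0396 and 0.0565, adjusted p = 0.328 and 0.377). For *Csf1r* the smallest p of r was with the stromal sum (r = 0.87, rho = 0.62, permutation p = 0.0260 and 0.169, adjusted p = 0.328 and 0.626). That r was 0.61 without TG1 and TG3.

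Among the tested protein-coding genes outside the 10, those whose log2 CPM followed *Csf1r* most closely over the 10 mice, group means removed, were *Tnfrsf11b* (r = 0.97), *Caskin1*, *Ppp6r2*, *C1qtnf1* and *Slc30a4* (r = 0.96). Those closest to *Csf1* were *Dpysl5* (r = 0.96), *Pip4k2a*, *Parp3*, *Itga5* and *Ckm* (r = 0.95). These are the highest of many correlations over the same 10 libraries and carry no test. Their differences between the genotypes ranged from a log2 fold change of -1.01 for *Slc30a4* to 0.65 for *Dpysl5*.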

How the data were processed

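Uterine RNA of 5 HSD17B1TG and 5 WT mice was extracted with Trizol and RNeasy columns, treated with DNase and sequenced from both ends at 150 bp. Per the labels and the study's methods, mapping used HISAT2 2.0.5 against GRCm38 with Ensembl 94 genes. Which program counted the reads, and whether it used strand, is not given in the sources used here. The authors deposited 1 table with the raw count of every gene in every mouse and with FPKM, in which the count is divided by gene length and by a number of fragments proportional to the size factor of the mouse. Columns of size-factor normalized counts, the authors' own fold changes and p-values, a shorter table of their called genes, and GO and KEGG enrichment tables were not used.

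Counts were filtered with filterByExpr, scaled with TMM and passed to the quasi-likelihood test of edgeR 4.0.16 in R 4.3.3, with Benjamini-Hochberg adjustment over 16993 genes. A gene was called at an adjusted p below 0.05, a fold change above 2 and a mean FPKM above 1 in either group, as the study's methods set them. The SE is the absolute log2 fold change divided by the square root of F, and intervals are 95% intervals. Alternatives were DESeq2 1.42.0, other scalings, no filter, limma 3.58.1 with voom weights or on log2(FPKM + 1) and log2(FPKM + 0.1), and each mouse left out. The scripts were tested on simulated data.

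The genes, the pathway lists (CSF1 receptor pathway and myeloid transcription factors, other colony-stimulating factors and receptors, other resident macrophage markers, macrophage activation, apoptotic cell uptake, C1 complex and classical complement) and the cell type lists were chosen with earlier results of these data known. Named besides the 10 genes were, per pathway list, the called genes and the 2 with the smallest p in each direction, up to 2 abundant genes of a cell type list, and the 5 genes closest to *Csf1r* and to *Csf1*. Called genes of cell type lists, *Retnlg*, *Camp*, *Ly6g*, *Ccr2*, *Ms4a4c*, *Ifitm6*, *Cd3g*, *Cd3d*, *Cd4*, *Siglech*, *Zbtb46*, *Il34*, *Gas6* and *Pros1* were named after their values were seen. 1 gene that this rule selects is not reported here.

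A count of 3 corresponds to at most 0.202 CPM, and this limit covers counting error only. Labels name no batch, litter or date. Each library is 1 mouse, and p-values measure the spread between these mice. No 2 libraries of the same group agreed within sampling noise. The human transgene is not part of the mouse annotation, so its level was not checked. Promoter sequences are from RefSeq (GRCm38.p6), 250 bases before the start. Gene overlaps are from GENCODE M21.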

Additional observations from a re-analysis of the deposited data

Results flagged for a closer look

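2 of the 20 sets of 5 mice (10 genes in each genotype) had 1 mouse far from the others by Dixon's criterion, where chance alone gives about 1 in 20. Both were WT4. Its *Cd68* level of 25.8 FPKM lay 0.713 of the WT range above the next WT mouse, and its *Cd163* level of 0.505 FPKM lay 0.739 of the range above the next. WT4 also had the highest epithelial sum (1492) and smooth muscle sum (5554) of the WT mice, and the part of these tissues in its *Cd68* and *Cd163* levels was not tested. Without WT4 the log2 fold change of *Cd68* was 1.74 and that of *Cd163* was 1.81. TG1, which was highest in 7 of the 10 genes, was not far enough from the other HSD17B1TG mice to be marked by this criterion.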

How the results depend on the processing

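*Cd68* and *Mertk* kept their direction and an adjusted p below 0.05 under all 7 other tools, scalings and filters (log2 fold change 1.42 to 1.62 and -1.28 to -0.96). With log2(FPKM + 1) the fold change of *Mertk* was under 2, so 0 of the 10 genes were called down. With 1 mouse left out, 0 to 1 of the 10 were called up and 0 to 1 down. Counts over all genes varied more: 906 up and 666 down with DESeq2, 1083 and 665 with voom quality weights, 225 down with log2(FPKM + 1), 568 up with the adjusted p alone, and 38 to 888 up and 27 to 666 down with 1 mouse left out. The fewest up calls, 38, came without TG5 or without WT2, the fewest down calls without TG5 and the most without WT4, and the cause was not tested. *Mrc1* turned from 0.13 to -0.044 with voom weights, -0.084 with log2(FPKM + 1) and -0.13 with log2(FPKM + 0.1). *C1qc* turned to -0.00022 with upper quartile scaling and -0.098 with voom weights. With 1 mouse left out, sign changes occurred in *Adgre1* (-0.25 to 0.14), *Mrc1* (-0.46 to 0.34), *C1qb* (-0.19 to 0.10) and *C1qc* (-0.15 to 0.19), none of which was called under any setting. The median log2 fold change of the 10 genes, 0.10, was -0.065 with voom weights and between -0.17 and 0.23 with 1 mouse left out, the negative value without TG1. The number of pairs with an adjusted p below 0.05 was 6 also with log2(FPKM + 1). Of the 9 pairs with *Cd68*, 4 were negative without TG1, an alternative chosen after seeing the data. The largest shift of the median log2 fold change of all genes was -0.084, with upper quartile scaling. No paired analysis was possible because the labels give no replicate numbers that the groups share. The *Cd163* values rest on 10 to 127 counts per mouse, which limits their precision.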
